A study of Mus musculus with 6 samples.

Results

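The 10 genes described here encode enzymes and chaperones that make, break and rearrange disulfide bonds in the endoplasmic reticulum (ER). They are P4hb, Pdia3, Pdia4, Pdia5, Pdia6, Txndc5, Tmx1, Erp29, Erp44 and Ero1l, chosen by gene symbol from a table of 22564 mouse protein-coding genes, and each has 1 row in it. RNA was sequenced, per the labels, from liver of male C57BL/6 mice aged 10 weeks. The tunicamycin group (n = 3 libraries) came from mice injected intraperitoneally each day with 0.2 mg/kg tunicamycin for 14 days, and the control group (n = 3) from mice of the same strain, sex and age. The sources used here do not say whether the controls received vehicle. The labels do not tie each library to a separate mouse, so p-values measure only the spread between these libraries, which may be technical. For limma that spread was taken from genes of like abundance and not from the single gene.

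Tunicamycin blocks the first step of N-linked glycosylation, and glycoproteins that cannot fold then collect in the ER. Many of these proteins need disulfide bonds. A protein disulfide isomerase passes a disulfide from its own pair of active-site cysteines to a client protein, or reshuffles one that formed between the wrong cysteines. The oxidase encoded by Ero1l then restores the disulfide of the isomerase and hands the electrons to oxygen, which yields hydrogen peroxide. The liver secretes much of the plasma protein of the body, and several genes of this family are textbook targets of the unfolded protein response, the signalling set off by misfolded protein in the ER. The question behind the comparison was how sustained low-dose ER stress changes liver gene expression.

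The active-site cysteines separate the 10 genes by function, so the coding sequence around them is shown first, as read from the longest coding transcript in GENCODE M21 (build GRCm38). A search in frame for a tryptophan codon, a cysteine codon, any pair of codons and a second cysteine codon found 2 sites in P4hb, Pdia3 and Pdia6, 3 in Pdia4, Pdia5 and Txndc5, and 1 in Tmx1. None was found in Erp29, Erp44 or Ero1l. In Erp44 the second cysteine codon is replaced by a serine codon, while Ero1l is an oxidase with another fold. Each sequence below runs 5′ to 3′ on the coding strand, and capitals mark the codons from the first cysteine to the second cysteine or serine. Pdia5 is given with its 3 sites because their inner codons differ from each other, whereas P4hb, Pdia3, Pdia6 and Txndc5 are given by the first.
P4hb, coding bases 151 to 183: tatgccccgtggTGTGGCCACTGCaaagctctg
Pdia3, coding bases 157 to 189: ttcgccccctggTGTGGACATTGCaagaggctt
Pdia6, coding bases 166 to 198: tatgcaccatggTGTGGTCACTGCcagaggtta
Txndc5, coding bases 211 to 243: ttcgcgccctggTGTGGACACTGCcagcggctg
Pdia5, coding bases 526 to 558: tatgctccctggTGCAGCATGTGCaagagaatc
Pdia5, coding bases 895 to 927: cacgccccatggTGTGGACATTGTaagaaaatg
Pdia5, coding bases 1258 to 1290: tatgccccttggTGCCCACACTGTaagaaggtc
Tmx1, coding bases 154 to 186: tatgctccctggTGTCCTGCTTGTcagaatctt
Erp44, coding bases 160 to 192: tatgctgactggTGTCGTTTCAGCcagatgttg
The sites shown for P4hb, Pdia3, Pdia6 and Txndc5 share glycine and histidine codons between the cysteines, the classic motif of the isomerases. Pdia5 has that pair at 1 of its 3 sites, and Tmx1 has proline and alanine codons there.

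The ER stress response element is a promoter sequence known to be bound by the stress factor ATF6 together with NF-Y. It was searched on both strands as CCAAT, any 9 bases and CCACG in RefSeq promoter windows (250 bases before to 50 bases after each gene start, build GRCm38.p6). Of 32851 mouse windows, 0.119% held it. Among the 10 genes it was in the window of Pdia6. The windows of Pdia3 and Pdia4 held the element without its last base (CCAAT, any 9 bases and CCAC), which 0.365% of all windows held and which was searched after the promoters had been seen. Hspa5, the gene of the ER chaperone BiP, is shown beside Pdia6 and Pdia4 as a well-studied carrier of the element. Capitals mark the 19 bases of the element in Pdia6 and Hspa5 and the 18 bases of its shortened form in Pdia4, where it lies in reverse orientation. Counted from the RefSeq gene start, the first capital is at -98 in Pdia6, -107 in Pdia4 and -65 in Hspa5. On the same count the shortened form starts at -29 in Pdia3. For Pdia3, Pdia4 and Pdia6 these starts differ from those of the GENCODE positions given below. The Pdia3 stretch, chr2:121413861-121413901, lies inside the GENCODE gene, which starts at 121413775.
Pdia6, chr12:17266479-17266521, plus strand: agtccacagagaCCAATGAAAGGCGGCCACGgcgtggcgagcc
Pdia4, chr6:47813590-47813632, minus strand: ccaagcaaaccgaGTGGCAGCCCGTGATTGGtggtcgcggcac
Hspa5, chr2:34772013-34772055, plus strand: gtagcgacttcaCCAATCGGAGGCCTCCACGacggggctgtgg
The related element, ATTGG, any base and CCACG, was in 0.0365% of all windows and in none of those of the 10 genes. The sequence TGACGTGG, the core of the element read by XBP1, was in 0.676% of all windows and in 1 of the 3 windows of Txndc5. The first element contains CCAAT, which 37.4% of windows held and which was found also for P4hb and Erp44. Erp29 had no entry. A match describes these letters in this window and does not show that a factor binds there.

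Recovered reads were few, and detection was uneven. Summed over the 22564 genes they numbered 611040, 553793 and 595501 in tunicamycin libraries 1, 2 and 3, against 541022, 577233 and 661145 in control libraries 1, 2 and 3. Of the 22564 genes, 13826 were at 0 in all 6 libraries and 1124, or 4.98%, were above 0 in all 6. Control 1 stood apart with the fewest genes above 0, 3046, against 4244 to 5482 in the other libraries. The most frequent number of reads per detected gene was 39.9, 68.9 and 70.8 in tunicamycin libraries 1 to 3, against 139, 46.6 and 53.8 in control libraries 1 to 3, and of the genes with a mean FPKM of 1 or more, 85.5% had a 0 in some library. The labelled tissue was only partly reflected in its markers, since 6 of 12 hepatocyte markers (Apoa1, Apoh, Ttr, Serpina1a, Cps1 and Cyp2e1) were at 0 in all libraries. The summed FPKM (fragments divided by transcript length and library size) of the 12 was 263 to 398 in tunicamycin libraries, against 469 to 773 in controls, without overlap. Single markers differed from the sum and from each other. Of the 6 tested, 2 had log2 fold changes above 0 and 4 below 0. Alb, named with Apob after their values were seen, had 133, 96.3 and 127 FPKM in tunicamycin libraries and 231, 300 and 213 in controls, and Apob had 5.34, 5.05 and 13.4 in tunicamycin libraries and 0.0425, 1.84 and 0.232 in controls. Alb was thus lower and Apob higher with tunicamycin, each without overlap, and limma called neither. The other hepatocyte markers tested overlapped between the groups. Of all genes tested, 3.03% were higher and 2.72% lower with tunicamycin without overlap in FPKM. Either held for 9.93% of those above 0 in all 6 libraries, as Alb and Apob were. In bulk tissue, fewer cells of a type and less RNA per cell cannot be told apart. Markers of other cells that secrete heavily were mostly at 0, with 10 of 10 for exocrine pancreas, 4 of 5 measured for plasma cells and 8 of 10 for fibroblasts and stellate cells at 0 throughout, as were 6 of 6 for endothelial cells. Summed FPKM was 9.10 to 173 in tunicamycin libraries and 0 to 40.4 in controls for plasma cell markers, all of it from Sdc1, and 0.392 to 47.9 and 0 to 49.3 for fibroblast and stellate markers. Epithelial markers, 2 of 9 of which (Cdh1 and Krt5) were at 0 throughout, summed to 551 to 1074 FPKM in tunicamycin libraries and 977 to 1257 in controls. In both groups this range lay above that of the hepatocyte sum. Of the epithelial markers, Sprr1a, named after its values were seen, had 468, 707 and 199 FPKM with tunicamycin and 580, 823 and 456 in controls. The 6 markers of dividing cells summed to 130 to 709 FPKM in tunicamycin libraries and 215 to 474 in controls. Whether the libraries are liver as labelled was not tested. The 5 measured macrophage markers, of which Clec4f, Marco and Timd4 were at 0 throughout, summed to 0 to 47.9 FPKM in tunicamycin libraries and 0 to 0.00471 in controls.

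None of the 10 genes passed a test between tunicamycin and control. The log2 fold change was above 0 for 5 of them and below 0 for 5, against 52.1% above 0 among all 7696 genes tested, and its median was -0.05, against 0.10 over all genes tested. P4hb, the founding isomerase, had the lowest limma p of the 10 (0.0889, unadjusted). When limma fitted no variance trend, its unadjusted p was 0.393, and Erp29 had the lowest, 0.266. P4hb had 1.82 times as many RPM in tunicamycin libraries, with no overlap between the groups in that measure. Such a separation with tunicamycin higher was seen for 3.03% of all genes tested, and in FPKM the P4hb groups overlapped. RPM is the reads of a gene over all reads of its library, times 1000000. The test was limma on log2(FPKM + 1) with Benjamini-Hochberg adjustment over the genes whose mean FPKM reached 1, a filter that all 10 genes passed. It called 0 of the 10 at an adjusted p under 0.05, against 5 of 7696 genes (0.065%, with 4 or 0.052% higher and 1 or 0.013% lower), and 0 of the 10 at an unadjusted p under 0.05, against 3.09% of genes. edgeR's quasi-likelihood test on the recovered reads called 0 of the 10, against 0.0243% of 4118 genes, and its lowest unadjusted p among them was 0.116, for P4hb, while 1.77% of all genes had one under 0.05. DESeq2 called 0 of the 8 to which it gave an adjusted p, against 1.48% of all genes with one, and its lowest unadjusted p over the 10 was 0.488, for Txndc5, while 8.11% of genes had one under 0.05. A positive log2 fold change means a higher value with tunicamycin. Because 1 is added before the log, it understates differences of genes with low FPKM.

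**Figure D1:**
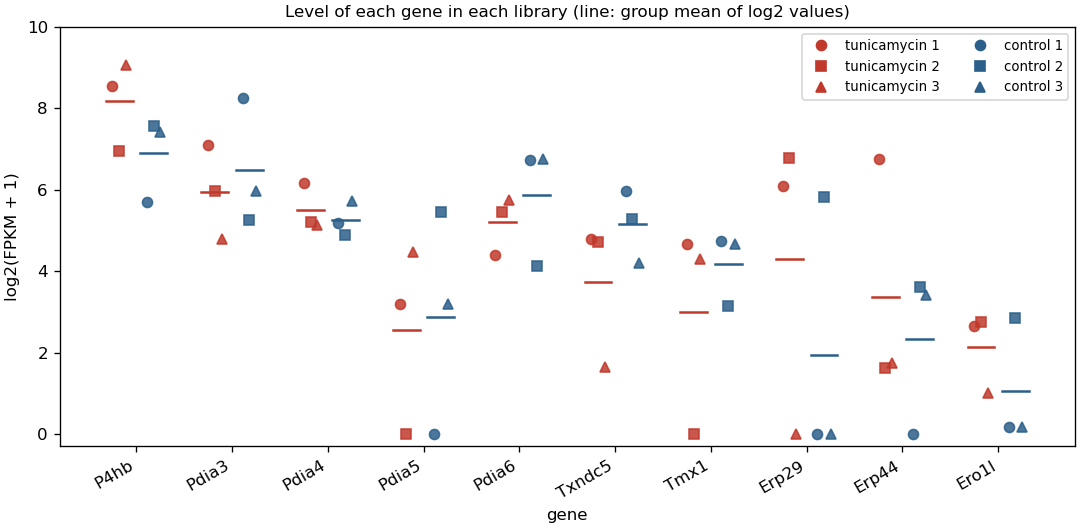
Each point is 1 library, with log2(FPKM + 1) on the vertical axis, the 10 genes along the horizontal axis, tunicamycin in red left of control in blue, and short lines at the group means of the log2 values. The groups overlap for every gene on this scale, and Pdia5, Tmx1, Erp29 and Erp44 each have at least 1 library at 0.

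P4hb encodes the classical protein disulfide isomerase, which is also the beta subunit of collagen prolyl 4-hydroxylase and a subunit of the microsomal triglyceride transfer protein. The gene (ENSMUSG00000025130) has 11 exons, counted here and below in the longest coding transcript, on the minus strand of chromosome 11, at 120560298 to 120573253 in GRCm38. It had 371, 123 and 539 FPKM in tunicamycin libraries 1, 2 and 3, against 50.9, 189 and 169 FPKM in control libraries 1, 2 and 3. Tunicamycin 1 and 3 lay above every control in FPKM, while tunicamycin 2 lay below controls 2 and 3. The means were 344 ± 209 FPKM in tunicamycin libraries and 137 ± 74.8 FPKM in controls (SD, n = 3 each), with a log2 fold change of 1.30 (95% interval -0.20 to 2.79, SE 0.76, limma adjusted p = 0.852). In reads, P4hb had 494, 598 and 860 in the tunicamycin libraries, against 243, 400 and 457 in the controls. Every tunicamycin library therefore held more P4hb reads than every control. The most frequent number of reads per detected gene also differed between libraries. It was 39.9, 68.9 and 70.8 in tunicamycin libraries 1 to 3, against 139, 46.6 and 53.8 in control libraries 1 to 3. Some reads may be copies of 1 molecule, and whether the P4hb difference holds in molecules was not tested. Scaled to all recovered reads of the library, the P4hb values were 808, 1080 and 1444 RPM in tunicamycin libraries and 449, 693 and 691 in controls. Their means were 1111 ± 319 and 611 ± 140 (SD, n = 3 each). The ratio of these means, 1.82, stayed between 1.55 without tunicamycin 3 and 2.07 without tunicamycin 1, and was 1.61 without control 1. An exact permutation test of the difference, 2-sided, gave p = 0.1, the smallest that 3 libraries against 3 allow. Groups with no overlap in RPM and tunicamycin higher were seen for 1 of the 10 genes and for 3.03% of all genes tested, or 3.49% of those above 0 in all 6 libraries, as P4hb was. Tunicamycin was lower with no overlap for 0 of the 10, against 2.55% of genes tested. In FPKM the groups overlapped for all 10 genes, while tunicamycin was higher without overlap for 3.03% and lower for 2.72% of genes tested, and either held for 9.93% of those above 0 in all 6 libraries. Among the hepatocyte markers Alb and the summed FPKM were lower and Apob was higher in every tunicamycin library than in any control, and their part in the P4hb result was not tested.

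Pdia3 encodes ERp57, the isomerase that works on glycoproteins held by calnexin and calreticulin. It lies on the plus strand of chromosome 2 at 121413775 to 121438687 (13 exons, ENSMUSG00000027248). Its values were 135, 62.1 and 26.9 FPKM in tunicamycin libraries 1 to 3, against 304, 37.2 and 62.0 FPKM in control libraries 1 to 3. Both groups were wide, and control 1 held the highest value. Pdia3 averaged 74.8 ± 55.4 FPKM with tunicamycin and 134 ± 147 FPKM in controls (SD, n = 3 each; log2 fold change -0.54, SE 1.12, limma adjusted p = 0.929). In reads it had 395, 205 and 132 with tunicamycin, against 592, 97 and 314 in controls. The ratio of mean RPM was 0.713 with all 6 libraries and 1.28 without control 1, so that 1 library set its direction. The log2 fold change without control 1 was 0.34, and without tunicamycin 3 it was 0.04.

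Pdia4 encodes ERp72, an isomerase with 3 active sites, and lies at 47796141 to 47813430 on the minus strand of chromosome 6 (10 exons, ENSMUSG00000025823). It had 71.5, 35.9 and 33.9 FPKM in tunicamycin libraries 1 to 3, against 35.4, 28.6 and 52.3 FPKM in control libraries 1 to 3. Tunicamycin 1 was the highest, and the other 5 libraries lay between 28.6 and 52.3 FPKM. The group means were close, 47.1 ± 21.1 FPKM with tunicamycin and 38.8 ± 12.2 FPKM in controls (SD, n = 3 each), with a log2 fold change of 0.23 (95% interval -2.45 to 2.91, SE 1.37, limma adjusted p = 0.997). Reads numbered 322, 150 and 148 with tunicamycin, against 145, 122 and 235 in controls. Without tunicamycin 1 its log2 fold change was -0.10, so that the direction rested on that library.

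Pdia6 encodes P5, an isomerase that associates with BiP, and is the gene whose promoter window held the complete stress element. It lies on the plus strand of chromosome 12 at 17266545 to 17284770 (13 exons, ENSMUSG00000020571). The 3 tunicamycin libraries had 20.0, 43.0 and 53.1 FPKM, against 105, 16.4 and 107 FPKM in the 3 controls. Controls 1 and 3 lay above every tunicamycin library, and control 2 lay below all of them. Mean FPKM was 38.7 ± 17.0 with tunicamycin and 76.3 ± 51.9 in controls (SD, n = 3 each; log2 fold change -0.67, SE 1.32, limma adjusted p = 0.922). In reads the same order held, with 71, 141 and 201 for tunicamycin and 264, 55 and 321 for controls. The log2 fold change stayed negative without any 1 library, from -1.54 to -0.22.

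Txndc5 encodes ERp46, an isomerase with 3 active sites, on the minus strand of chromosome 13 at 38500079 to 38528824 (10 exons, ENSMUSG00000038991). It was detected in all 6 libraries, at 26.9, 25.3 and 2.14 FPKM with tunicamycin, against 61.7, 38.1 and 17.3 FPKM in controls. Tunicamycin 3 was the lowest by far, and control 3 lay below the other tunicamycin libraries, so that the groups overlapped. The means were 18.1 ± 13.9 FPKM with tunicamycin and 39.0 ± 22.2 FPKM in controls (SD, n = 3 each), a ratio of 0.464, with a log2 fold change of -1.43 (95% interval -4.66 to 1.802, SE 1.65, limma adjusted p = 0.852). Reads were 129, 111 and 10 in tunicamycin libraries, against 271, 170 and 88 in controls. Without tunicamycin 3 the log2 fold change was -0.39, the value nearest 0 with 1 library left out. Exons of Txndc5 share 224 bases with Bmp6 and 311 bases with the antisense gene Gm31834 on the opposite strand. The kit kept strand information, but the sources used here do not say whether counting used it, so reads of these genes may be mixed.

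Pdia5 encodes PDIR, an isomerase with 3 active sites, and Tmx1 a membrane-anchored thioredoxin-like enzyme. Both were at 0 in tunicamycin 2, and Pdia5 also in control 1. Pdia5 (ENSMUSG00000022844, 17 exons, minus strand of chromosome 16 at 35397312 to 35490873) had 8.13, 0 and 21.4 FPKM with tunicamycin, against 0, 43.1 and 8.19 FPKM in controls. Its reads, 26, 0 and 66 with tunicamycin and 0, 130 and 26 in controls, followed the same pattern. The log2 fold change was -0.33 (SE 2.02, limma adjusted p = 0.997), and it was 0.95 without tunicamycin 2 and 0.96 without control 2. Tmx1 (ENSMUSG00000021072, 8 exons, plus strand of chromosome 12 at 70453095 to 70468040) had 24.4, 0 and 18.8 FPKM with tunicamycin, against 25.6, 7.84 and 24.6 FPKM in controls. In 5 of 6 libraries Tmx1 thus lay between 7.84 and 25.6 FPKM. Its log2 fold change, -1.19 with all 6 libraries (SE 1.86, limma adjusted p = 0.886), became 0.30 without tunicamycin 2, the library at 0. Tmx1 reads did not follow FPKM, with 26, 0 and 93 for tunicamycin and 119, 38 and 25 for controls.

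Erp29 and Erp44 have the thioredoxin fold without the full pair of cysteines. Erp29 works as a folding factor for secreted proteins, and Erp44 retains Ero1 and other clients in the early secretory pathway. Erp29 (ENSMUSG00000029616, 3 exons, minus strand of chromosome 5 at 121428590 to 121452506) had 67.6, 108 and 0 FPKM with tunicamycin, against 0, 56.0 and 0 FPKM in controls. It was thus present in 2 tunicamycin libraries and 1 control, with 77, 137 and 0 reads against 0, 98 and 0 reads. The log2 fold change, 2.35, was the largest of the 10, and its 95% interval ran from -1.49 to 6.18 (SE 1.96, limma adjusted p = 0.852). Exons of Erp29 share 2210 bases with Naa25 and 180 bases with Tmem116 on the opposite strand, so its reads are uncertain. Erp44 (ENSMUSG00000028343, 12 exons, minus strand of chromosome 4 at 48193323 to 48279558) had 106, 2.07 and 2.37 FPKM with tunicamycin, against 0, 11.3 and 9.63 FPKM in controls. A single library, tunicamycin 1, carried the higher tunicamycin mean of 36.9 ± 60.1 FPKM, against 6.96 ± 6.08 FPKM in controls (SD, n = 3 each). The corresponding reads were 59, 1 and 11 with tunicamycin and 0, 51 and 46 in controls, where tunicamycin 1 was close to controls 2 and 3. The log2 fold change of Erp44 was 1.03 on FPKM (SE 2.00, limma adjusted p = 0.917), -0.35 by edgeR and by DESeq2 on reads, and -0.65 on FPKM without tunicamycin 1.

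Ero1l encodes the ER oxidase ERO1-alpha, which in mouse cells is a known target of the stress factor CHOP (Ddit3). It lies on the minus strand of chromosome 14 at 45283087 to 45318771 (16 exons, ENSMUSG00000021831) and had the lowest mean FPKM of the 10. Values were 5.33, 5.73 and 0.998 FPKM with tunicamycin, against 0.133, 6.24 and 0.121 FPKM in controls. Control 2 was the highest of all 6, while controls 1 and 3 held 1 read each. In reads, Ero1l had 44, 44 and 8 with tunicamycin, against 1, 49 and 1 in controls. The means were 4.02 ± 2.62 FPKM with tunicamycin and 2.17 ± 3.53 FPKM in controls (SD, n = 3 each; log2 fold change 1.07, SE 1.97, 95% interval -2.78 to 4.92, limma adjusted p = 0.909). Ddit3 itself had 55.0, 96.4 and 0 FPKM with tunicamycin and 0, 0 and 60.6 FPKM in controls, while the libraries with 44 or more Ero1l reads were tunicamycin 1, tunicamycin 2 and control 2.

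**Figure D2:**
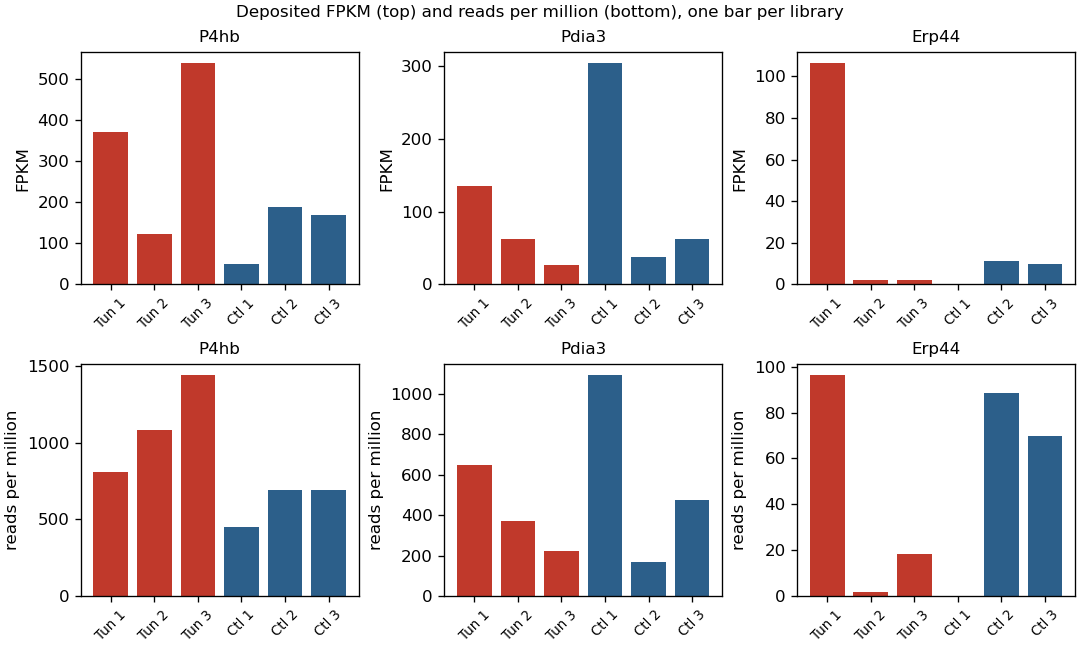
Bars give the FPKM (top row) and RPM (reads scaled to all recovered reads of the library, bottom row) of P4hb, Pdia3 and Erp44 in each library, tunicamycin in red and control in blue. P4hb separates the groups in RPM, where the lowest tunicamycin library is at 808 and the highest control at 693, but not in FPKM. The Erp44 bar of tunicamycin 1 stands far above the others in FPKM. In RPM it is also the highest, at 96.6, but near controls 2 and 3, at 88.4 and 69.6.

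For several of the genes FPKM and reads ordered the libraries differently. The transcript length that would turn the deposited count into the deposited FPKM was therefore computed for each gene and library with a count of at least 10. For Pdia4 this implied length was 2461 to 2484 nt in all 6 libraries, against 2399 nt for the longest annotated coding transcript, and for Pdia5, Txndc5 and Ero1l the highest and lowest lengths differed by at most 1.09 times. P4hb instead had implied lengths of 732, 2868 and 901 nt in tunicamycin libraries 1 to 3, against 2872, 1230 and 1485 nt in control libraries 1 to 3. The longest annotated transcript of P4hb has 2861 nt and the shortest 414 nt. Tunicamycin 1 and 3, the libraries of highest P4hb FPKM, thus had the shortest implied lengths, and tunicamycin 2 and control 1, at full length, the lowest FPKM. The implied length of Pdia3 was 1605, 1944 and 2771 nt with tunicamycin, against 1174, 1520 and 2788 nt in controls. For Tmx1 it was 586 nt in tunicamycin 1 and 559 nt in control 3, against 2798 to 2824 nt in 3 other libraries. Erp44 had the widest range, 305 nt in tunicamycin 1 against 2615 to 2640 nt in tunicamycin 3 and controls 2 and 3. Pdia6 ranged 1.41 times, from 1511 to 2136 nt. With length held at the longest coding transcript, the tunicamycin mean over the control mean was 1.82 for P4hb in place of 2.52 in FPKM, 0.740 for Erp44 in place of 5.31, and 2.20 for Erp29 in place of 3.14. Whether the libraries differ in the isoforms they hold was not tested.

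**Figure D3:**
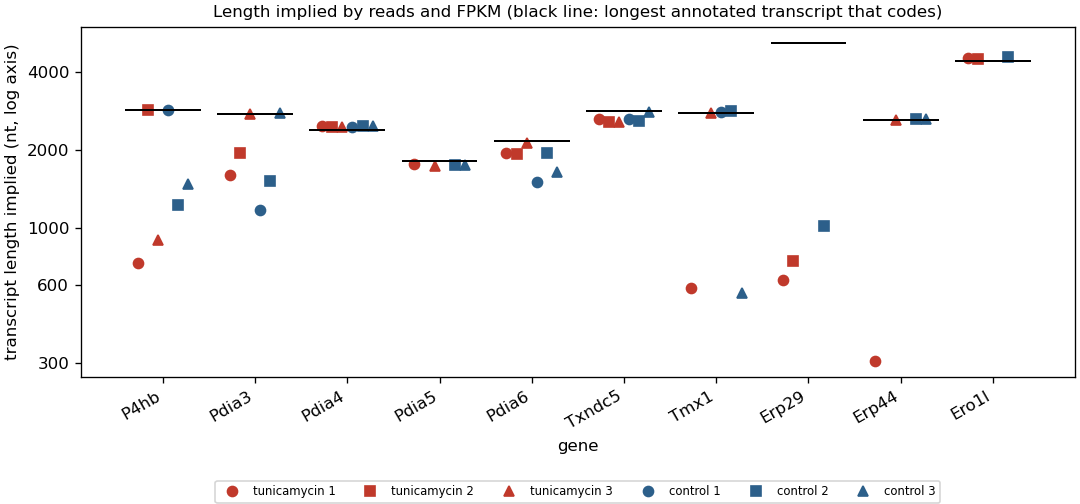
Each point is the transcript length in nt, on a log axis, implied by the deposited count and FPKM of 1 gene in 1 library, tunicamycin in red and control in blue, with a black line at the longest annotated coding transcript. Pdia4, Pdia5 and Ero1l keep 1 length, whereas P4hb spans 732 to 2872 nt and Erp44 305 to 2640 nt.

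Levels of different genes were compared as RPM per kilobase of the longest coding transcript. The mean over 6 libraries was 301 for P4hb, 179 for Pdia3, 136 for Pdia6 and 131 for Pdia4. Lower levels followed for Txndc5 at 79.5, Pdia5 at 38.5, Tmx1 at 31.1, Erp44 at 17.5, Erp29 at 17.4 and Ero1l at 9.55. Each gene overlapped its neighbour in this order across the 6 libraries. P4hb ranged from 157 to 505 on this scale and so exceeded the highest library of Pdia5, Tmx1, Erp29, Erp44 and Ero1l in each of its own. It was first of the 10 in 5 of 6 libraries, and in control 1 Pdia3 reached 395 against 157 for P4hb. The value of Erp29 depends on its 5204-nt annotated transcript, since the implied length of that gene was 627 to 1019 nt. In mean FPKM Erp29 stood at 38.6, above Txndc5 at 28.6, and P4hb was again first at 241.

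The 10 genes together had 2689, 2505 and 2568 RPM in tunicamycin libraries 1 to 3, against 3022, 2096 and 2288 in control libraries 1 to 3. The tunicamycin libraries lay close together and within the range of the controls. The mean sum was 2587 ± 93.7 with tunicamycin and 2469 ± 489 in controls (SD, n = 3 each), a ratio of 1.05 that ran from 0.974 without control 2 to 1.18 without control 1. P4hb took 30.1%, 43.1% and 56.2% of the summed reads with tunicamycin, against 14.9%, 33.1% and 30.2% in controls. The groups overlapped in this share, since tunicamycin 1 lay below controls 2 and 3. Without P4hb the other 9 genes summed to 1476 ± 381 RPM with tunicamycin and 1858 ± 627 in controls (SD, n = 3 each). Pdia3 took the largest share in control 1, 36.2%, as against 8.02% in control 2. In FPKM the sums were 837, 405 and 699 with tunicamycin, against 583, 434 and 451 in controls. All 10 genes were above 0 in tunicamycin 1 and control 2, and 7 were in control 1.

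**Figure D4:**
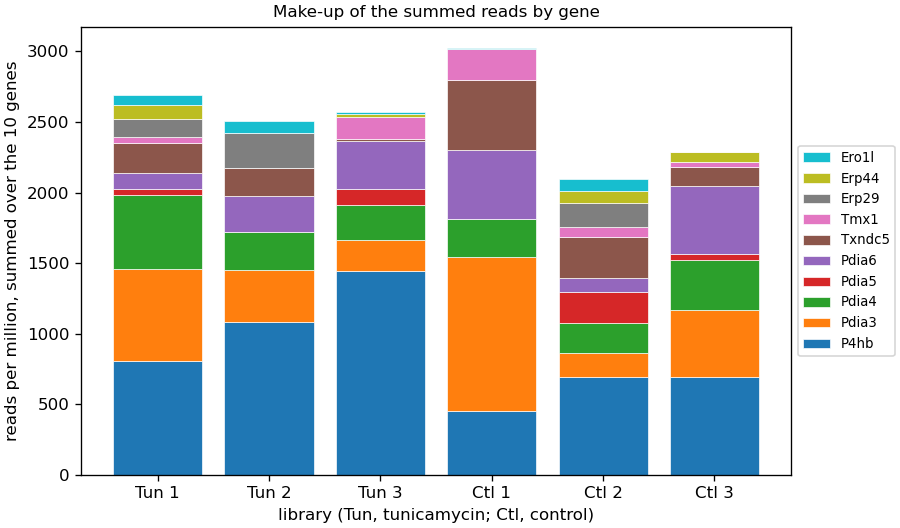
Stacked bars show RPM of the 10 genes in each library (Tun, tunicamycin; Ctl, control), coloured by gene with P4hb at the base. The totals of the tunicamycin libraries, 2505 to 2689, fall within the control range of 2096 to 3022, while the P4hb segment is taller in every tunicamycin library than in any control.

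**Figure D5:**
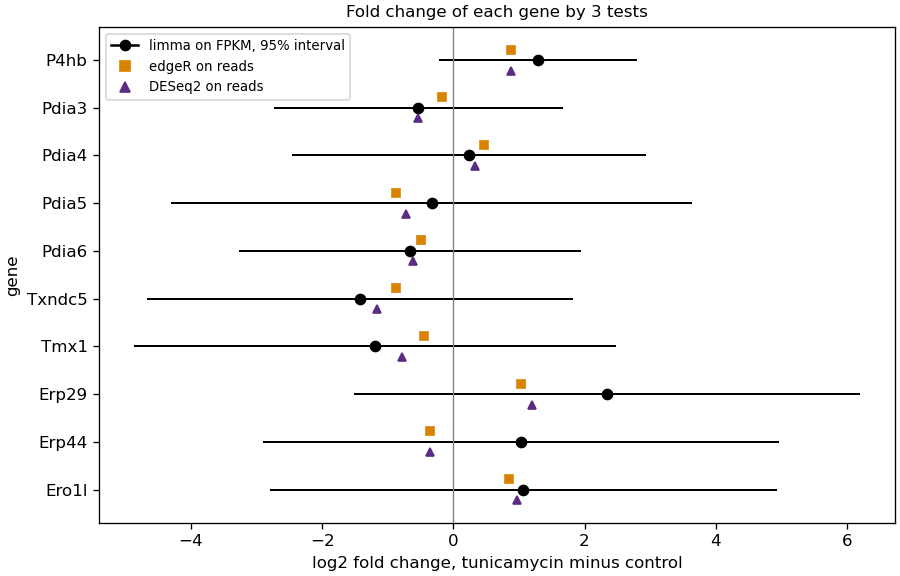
Log2 fold changes (tunicamycin minus control) of the 10 genes by limma on FPKM, with 95% intervals as bars, and by edgeR and DESeq2 on reads as orange squares and purple triangles. Every limma interval includes 0, that of P4hb being the narrowest at -0.20 to 2.79, and Erp44 is positive by limma and negative by both read-based tests.

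The table held 12 further genes of the disulfide isomerase family. Of these, 5 (Pdia2, Erp27, Txndc16, Agr2 and Agr3) were at 0 in all 6 libraries, and 7 were tested. Log2 fold changes were above 0 for 2 of the 7 and below 0 for 5 (median -0.84). Of all genes tested, 52.1% were above 0, with a median of 0.10. limma called 0 of the 7, with 0 at an unadjusted p under 0.05, edgeR 0 of the 6 it tested and DESeq2 0 of the 3 with an adjusted p. Tmx2, a membrane-bound relative of Tmx1, had 0, 0 and 4.23 FPKM with tunicamycin, against 46.7, 0 and 59.9 FPKM in controls (log2 fold change -3.04, SE 2.05, limma adjusted p = 0.852). Tmx4, another membrane-bound relative, had 1.74, 0 and 0 FPKM with tunicamycin and 18.9, 5.89 and 0 FPKM in controls. Txndc11 reached 28.1 FPKM in control 3 and at most 2.34 FPKM elsewhere. Pdilt, known as a testis isomerase-like protein, had 8.59, 7.31 and 0 FPKM with tunicamycin and 0, 0 and 11.2 FPKM in controls. Dnajc10, the ER reductase ERdj5, named because it was the single gene of the 12 above 0 in every library, had 34.7, 27.5 and 9.30 FPKM with tunicamycin, against 20.8, 18.3 and 32.6 FPKM in controls.

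The table also held other redox enzymes of the ER and the partners of P4hb. Of 10 redox enzymes, 8 were tested, with log2 fold changes above 0 for 5 and below 0 for 3 (median 0.88). Their summed FPKM was 106 to 160 with tunicamycin and 14.1 to 125 in controls, and none of the 10 was above 0 in all 6 libraries. Selm, a thioredoxin-like selenoprotein, had 30.2, 0 and 73.4 FPKM with tunicamycin and was at 0 in the 3 controls (log2 fold change 3.73, limma adjusted p = 0.852). Vkorc1l1, a vitamin K epoxide reductase, had 4.95, 0 and 32.6 FPKM with tunicamycin and was likewise at 0 in the controls. Prdx4, the peroxiredoxin that consumes hydrogen peroxide in the ER, showed the opposite, at 0 in the 3 tunicamycin libraries and at 0, 27.96 and 36.3 FPKM in controls (limma adjusted p = 0.852). Sep15, a selenoprotein that binds the glycoprotein folding sensor, had 66.7, 157 and 0 FPKM with tunicamycin and 0, 0 and 88.4 FPKM in controls. Of the 4 partner subunits, P4ha3 was at 0 throughout and 3 were tested, each with a positive log2 fold change (median 0.35). Beside both lists, 52.1% of all genes tested had a log2 fold change above 0, with a median of 0.10. P4ha1, the main alpha subunit of collagen prolyl 4-hydroxylase, had 13.6, 23.6 and 21.6 FPKM with tunicamycin, against 33.4, 20.9 and 6.96 FPKM in controls. P4ha2, the alpha subunit of a second form of that enzyme, had 0.578, 15.8 and 38.0 FPKM with tunicamycin and 0.310, 16.04 and 21.3 FPKM in controls. Mttp, the large subunit of the triglyceride transfer protein and the partner of P4hb in lipoprotein assembly, had 6.90, 8.01 and 0 FPKM with tunicamycin and was at 0 in the 3 controls. In both lists limma called 0 genes, with 0 at an unadjusted p under 0.05. edgeR and DESeq2 called 0 too, but among the redox enzymes each gave a value or an adjusted p to 1 gene, Sep15, and among the partners to P4ha1 and P4ha2. By DESeq2, 3 redox enzymes (Selm, Vkorc1l1 and Prdx4) and 1 partner (Mttp) had an unadjusted p under 0.05, with no adjusted p. Among all genes with a DESeq2 p, 8.11% had one under 0.05. Each of these named genes was at 0 in every library of 1 group and in 1 library of the other.

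The 10 chaperones that work with the isomerases were all tested by limma. Of these, 7 had a positive log2 fold change (median 0.48), against 52.1% of all genes tested (median 0.10). limma called 0 of the 10 chaperones, with 0 at an unadjusted p under 0.05. edgeR and DESeq2 called 0 of 9, Dnajb11 having no edgeR value and no DESeq2 adjusted p. Ppib, the prolyl isomerase cyclophilin B, had 33.5, 45.8 and 27.6 FPKM with tunicamycin, against 0, 35.9 and 0.663 FPKM in controls (log2 fold change 3.18, SE 1.87, limma adjusted p = 0.852). Its tunicamycin libraries were alike, and control 2 lay among them. Manf, a secreted ER stress protein, had 77.0, 88.1 and 44.2 FPKM with tunicamycin and 112, 0 and 68.5 FPKM in controls. Calr, the calreticulin that presents glycoproteins to the Pdia3 product, had 64.6, 283 and 121 FPKM with tunicamycin, against 737, 226 and 95.6 FPKM in controls, and control 1 was its highest library as it was for Pdia3. Hspa5 had 202, 175 and 172 FPKM with tunicamycin, against 204, 110 and 81.3 FPKM in controls, and its reads, 442, 748 and 338 against 282, 479 and 374, overlapped. Of 6 sensors and factors of the unfolded protein response, the log2 fold change was above 0 for 2 and below 0 for 4 (median -0.60), and limma called 0 of them, with 0 at an unadjusted p under 0.05, edgeR 0 of the 4 it tested and DESeq2 0 of the 3 with an adjusted p. Atf4, the factor downstream of the sensor PERK, had 98.5, 19.2 and 43.3 FPKM with tunicamycin, against 98.9, 70.2 and 88.1 FPKM in controls. Atf6, the sensor that reads the stress element, had 2.11, 0.780 and 5.91 FPKM with tunicamycin and 3.97, 7.48 and 9.53 FPKM in controls. Xbp1, the factor made active by the sensor IRE1, reached 46.5 FPKM in control 3 and at most 0.765 FPKM in any other library.

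The genes whose log2(FPKM + 1) varied most like that of P4hb over the 6 libraries, among 1117 other genes tested and above 0 in all, were Wdfy3 (Pearson r = 0.989), Cct7 (r = 0.983) and Pkp4 (r = 0.979). These r values describe 6 points that share their library and depth. Wdfy3 had 11.6, 4.82 and 14.8 FPKM with tunicamycin and 1.24, 5.29 and 4.95 FPKM in controls. Cct7 had 58.9, 9.94 and 62.7 FPKM with tunicamycin and 0.990, 19.9 and 17.8 FPKM in controls. Both were highest in tunicamycin 1 and 3 and lowest in control 1, as was P4hb in FPKM. The implied length of P4hb was shortest in those tunicamycin libraries, at 732 and 901 nt. In RPM, P4hb in tunicamycin 2, at 1080, lay above tunicamycin 1, at 808. Whether the likeness holds in RPM was not tested.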

How the data were processed

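Liver RNA was depleted of ribosomal RNA and sequenced as stranded paired-end libraries, per the labels. Per the submitters' processing notes the tools included CASAVA 1.8, cutadapt 1.9.3, HISAT2 2.0.4 and Cuffdiff (no Cufflinks version given), with build mm10. The authors deposited FPKM made with Cuffdiff, per the labels, for 22564 genes, and 1 more line was not analysed here. Their estimated counts, as deposited, carry a scaling that no source used here describes. Each count was divided by the step of each library (0.995 to 1.10) and rounded to whole reads. Of the values above 0, 97.2% to 97.9% lay within 0.01 of a whole multiple. The limit for a gene without reads was 3 reads, or 0.000454% to 0.000555% of the recovered reads of a library. It covers counting error only, as some reads may be copies of 1 molecule.

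limma 3.58.1 (R 4.3.3, variance trend, group as the only term, 2-sided) was the main test. Its prior had infinite degrees of freedom, so each SE came from genes of like abundance. Alternatives on the reads were the quasi-likelihood test of edgeR 4.0.16 with TMM scaling and DESeq2 1.42.0 with poscounts. DESeq2 gave no adjusted p to Erp44 and Ero1l. An exact permutation test was used for RPM (reads scaled to all recovered reads of the library) and for FPKM. The limma and edgeR steps, but not DESeq2 or the permutation test, were run on simulated negative binomial counts with known changes. The simulation did not model genes lost from whole libraries or copied reads. It therefore does not show how the tests behave on these data. The implied length is the estimated count divided by FPKM and by the scale of the library, itself set by genes with 1 annotated transcript.

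The members and lists were chosen with earlier results of these data known. All 10 members are named, with up to 4 genes of lowest limma p from each other list and the 3 genes most like the member of highest mean FPKM. Dnajc10, Alb, Apob, Sprr1a and Dnajb11 were named after their values were seen. An FPKM of 0 can be a failed estimate. Replicate numbers were not used to pair the samples in the main test, since the labels give no shared origin. No same-numbered pair correlated, which cannot exclude a pairing in data with so many values at 0. The active-site sequence of Pdia4 is not reported here.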

Additional observations from a re-analysis of the deposited data

How the results depend on the processing

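None of the 10 genes was called under any of the 17 alternatives, and no gene of the other lists was, though edgeR and DESeq2 left some of these genes without a value or an adjusted p (Erp44 and Ero1l by DESeq2). The lowest adjusted p over the alternatives was 0.612, for P4hb. P4hb, Erp29 and Ero1l kept log2 fold changes above 0, and Pdia6 and Txndc5 below 0, under every alternative in which they were tested, while a minimum mean FPKM of 5 removed Ero1l. With 1 library left out, the log2 fold change ran from -1.16 to 0.34 for Pdia3 (above 0 without control 1 or tunicamycin 3), -0.10 to 0.47 for Pdia4 (below 0 without tunicamycin 1), -1.77 to 0.96 for Pdia5 (above 0 without tunicamycin 2 or control 2), -2.03 to 0.30 for Tmx1 (above 0 without tunicamycin 2) and -0.65 to 1.91 for Erp44 (below 0 without tunicamycin 1 or control 1). Erp44 was also below 0 on reads, at -0.35 by edgeR, -0.30 by edgeR with no filter on low counts and -0.35 by DESeq2, where the length of the transcript does not enter. An edgeR fit without control 1, chosen after seeing the data, gave -0.88 for Erp44, 0.41 for Pdia3 and 0.26 for Tmx1. The median log2 fold change of the 10 ran from -0.45 to 0.57 with 1 library left out. That of all genes tested ran from -0.21 without control 1 to 0.50 without control 3. Over all genes, limma called 5. That count was 0 with no filter on low values, 2 with a minimum mean FPKM of 5, 0 without the variance trend, 0 with the replicate number as a block and 0 to 7 with 1 library left out. edgeR called 1 with its filter, 3 without it and 0 without control 1, and DESeq2 called 49. Median-of-ratios and quantile scaling each called 4, all higher with tunicamycin, against 4 higher and 1 lower by limma as reported. Under the replicate block 0 of the 10 genes was called. Deviations of same-numbered libraries from their group means had r of -0.0093, -0.014 and 0.0023 for numbers 1, 2 and 3. Between different numbers r ran from -0.0089 to 0.018. With a 0 in some library for 85.5% of genes tested, this check cannot exclude a pairing. The cause of these shifts was not tested. At 541022 to 661145 recovered reads per library, the genes with few reads had wide limma 95% intervals, -2.78 to 4.92 for Ero1l and -2.89 to 4.95 for Erp44.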
